A study of Mus musculus with 34 samples.

Results

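The genes described here are 10 direct targets of Wnt/beta-catenin signalling in mouse embryonic stem (ES) cells: Axin2, Sp5, Nkd1, Notum, Lef1, Tcf7, Cdx1, Rnf43, Znrf3 and Lgr5. They were chosen by name as known targets, with earlier results of these data known. All 10 were found by symbol among the 48709 genes listed for the triple-mutant libraries and among the 22018 listed for the single-mutant libraries. Their messenger RNA levels are given in all 34 libraries as normalized CPM, the reads of a gene as a part of its library's total, scaled to a common library size after correction for composition.

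Beta-catenin is destroyed in resting cells by a complex built on Axin proteins, in which the kinase Gsk3 marks it for degradation. When a Wnt ligand binds its receptor, or when Gsk3 is blocked by a small molecule, beta-catenin accumulates, enters the nucleus and joins TCF/LEF proteins on DNA. Many of the genes that respond fastest are brakes on the same pathway, so that their RNA is widely used as a readout of its activity. In ES cells a Gsk3 inhibitor is one of the inhibitors of 2iL medium, beside a MEK inhibitor and LIF, and one known outcome of beta-catenin there is release of pluripotency genes from the repressor Tcf7l1.

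The study examined the Nucleosome Remodelling and Deacetylation (NuRD) complex, of which the MTA proteins are structural subunits, in ES cells of strain 129/Ola. The triple-mutant set held 16 libraries, 4 each of Control and Mta123KO cells labelled 2i+LIF and of the same genotypes labelled as 48 h in N2B27 medium with inhibitors and LIF removed. Per the study's table of lines, Control was Mta1 +/∆ Mta3 flox/flox, and thus already lacked 1 Mta1 allele, and Mta123KO was Mta1 ∆/∆ Mta2 ∆/- Mta3 ∆/∆, made from cells lacking Mta1, in which Mta2 was disrupted by gene targeting and floxed Mta3 was then deleted with Cre. Each genotype had 2 numbered lines with 2 libraries per line and label. The single-mutant set held 18 libraries labelled 2i+LIF, 3 each of Mta1_flox/flox and Mta1_del/del, Mta2_WT and Mta2_KO, and Mta3_flox/flox and Mta3_del/del, in which the del alleles lack their floxed exons and the Mta2 knockout was 1 line. The study calls its RNA-seq replicates biological, while the labels do not say whether libraries of 1 line came from separate cultures, so p-values measure the spread between these libraries.

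The sample labels of the triple-mutant set give one culture and the names of the deposited files the opposite one for every library. The levels of marker genes go against the labels. In Control cells Nanog, a pluripotency factor, had a mean of 67.6 CPM under the 2iL label and 933 CPM under the 48 h label, and Tfcp2l1, another, of 36.0 and 1784 CPM. Sox1, a neural factor, was at 48.9 and 1.78 CPM and Dusp6, a gene induced by ERK, at 169 and 13.8 CPM. In the parents and wild type of the single-mutant set, given as 2i+LIF by labels and file names alike, group means were 1086 to 1605 CPM for Nanog, 1138 to 2080.2 CPM for Tfcp2l1, 0.861 to 1.59 CPM for Sox1 and 5.46 to 13.4 CPM for Dusp6, nearer to the libraries labelled 48 h for each gene. Samples were not regrouped by measured values, so groups are called labelled 2iL and labelled 48 h throughout. If the labels were exchanged, every culture change given here would reverse its sign and both genotype comparisons would swap places.

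Total counts ran from 37855790 to 57602285 per library in the triple-mutant set and from 13105820 to 40613585 in the single-mutant set. The targeted genes went with the genotype labels: Mta2 was at 4.72 to 10.4 CPM in the 8 Mta123KO libraries against 111 to 201 CPM in the 8 Control libraries, and Mta3 at 9.52 to 23.8 against 36.4 to 74.9 CPM. Mta1 was at 15.6 to 30.0 against 23.4 to 48.6 CPM, lower in Mta123KO within each label but with overlap across labels. In the single mutants each targeted gene was lower in every mutant library, Mta1 at 38.5 to 48.0 against 69.0 to 105 CPM, Mta2 at 9.24 to 11.9 against 232 to 247 CPM and Mta3 at 9.65 to 12.8 against 60.6 to 70.5 CPM. Both Mta123KO lines stood apart from each other, with a chi-square divided by its degrees of freedom of 87 to 113 between libraries of different lines against 6.32 to 19.4 between libraries of 1 line. In the single-mutant set, Mta2_WT replicate 3 stood apart at 187 to 215 against 8.63 between the other 2, Mta2_KO replicate 2 at 74.7 to 77.1 against 4.41, Mta3_flox/flox replicate 3 at 97.7 to 112 against 27.1 and Mta3_del/del replicate 2 at 59.4 to 62.1 against 21.8.

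Promoter windows show whether the sequence that TCF/LEF proteins read is present near 1 start each of Sp5, Axin2 and Lef1. Sp5 and Lef1 had large changes in opposite directions between the culture labels, and Axin2 is the commonest reporter of the pathway. Windows of 250 bases before and 50 bases after the transcription start were taken from RefSeq on GRCm38.p6, written 5′ to 3′ on the strand of the gene, and capitals mark the 6-letter core CTTTGA of the TCF/LEF motif or its reverse complement TCAAAG. The Sp5 window (chr2:70474673-70474972, plus strand) has 250 bases upstream of the gene and 50 bases in an exon. The Axin2 window (chr11:108920099-108920398, plus strand) has the same layout. The Lef1 window shown (chr3:131156044-131156343, plus strand) is that of an internal start, intronic over its whole length in the GENCODE gene model. It is the only Lef1 window with the core, and the Lef1 windows upstream of the gene hold none.
Sp5: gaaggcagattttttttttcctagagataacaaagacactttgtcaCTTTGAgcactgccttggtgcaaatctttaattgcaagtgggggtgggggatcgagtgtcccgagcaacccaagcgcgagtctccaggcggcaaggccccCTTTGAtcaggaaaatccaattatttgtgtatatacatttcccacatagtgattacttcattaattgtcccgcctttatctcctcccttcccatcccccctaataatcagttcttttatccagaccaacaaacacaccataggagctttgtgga
Axin2: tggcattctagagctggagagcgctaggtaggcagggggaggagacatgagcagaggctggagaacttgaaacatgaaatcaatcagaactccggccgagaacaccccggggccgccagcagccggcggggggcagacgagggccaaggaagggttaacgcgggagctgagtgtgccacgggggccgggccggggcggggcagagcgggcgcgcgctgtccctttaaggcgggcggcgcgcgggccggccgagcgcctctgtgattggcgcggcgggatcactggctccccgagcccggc
Lef1: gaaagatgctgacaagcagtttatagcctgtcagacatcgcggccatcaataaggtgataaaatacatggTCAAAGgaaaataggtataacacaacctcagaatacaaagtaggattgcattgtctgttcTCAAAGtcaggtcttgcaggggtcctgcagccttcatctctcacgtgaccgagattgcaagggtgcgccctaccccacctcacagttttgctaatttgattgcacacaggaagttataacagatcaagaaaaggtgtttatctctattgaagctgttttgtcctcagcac
The Sp5 window holds the core 2 times, at bases -204 and -104 from the start, and the Lef1 window 2 times, at -180 and -120. The core was absent from the Axin2 window and from the remaining windows of Lef1, Nkd1, Tcf7 and Rnf43, which left 2 of 11 member windows with a match (18.2%), against 5257 of 32851 windows in the whole table. The 7-letter form CTTTGAT or ATCAAAG, which contains the core, was in 1 of the 11 windows, that of Sp5, and in 3.73% of all windows. A match is a description of these letters and not a measured binding site, and other forms of the motif were not searched. The windows of Nkd1 and Rnf43 lie wholly inside their genes in the GENCODE models. 6 of the 10 genes had a window that could be shown.

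Between the culture labels in Control cells, the readout split. Axin2, Sp5, Notum and Cdx1 rose in the libraries labelled 48 h, Lef1 and Nkd1 fell, and Tcf7 stayed within its spread. A gene is called changed here at an adjusted p under 0.05 by edgeR's quasi-likelihood test and a fold change beyond 2 either way, so that 4 of the 10 genes were called higher and 2 lower. Over all 21240 genes tested, 10.4% were called higher and 13.2% lower. The median log2 fold change was 0.64 over the 10 genes and 0.01 over all genes tested.

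**Figure D1:**
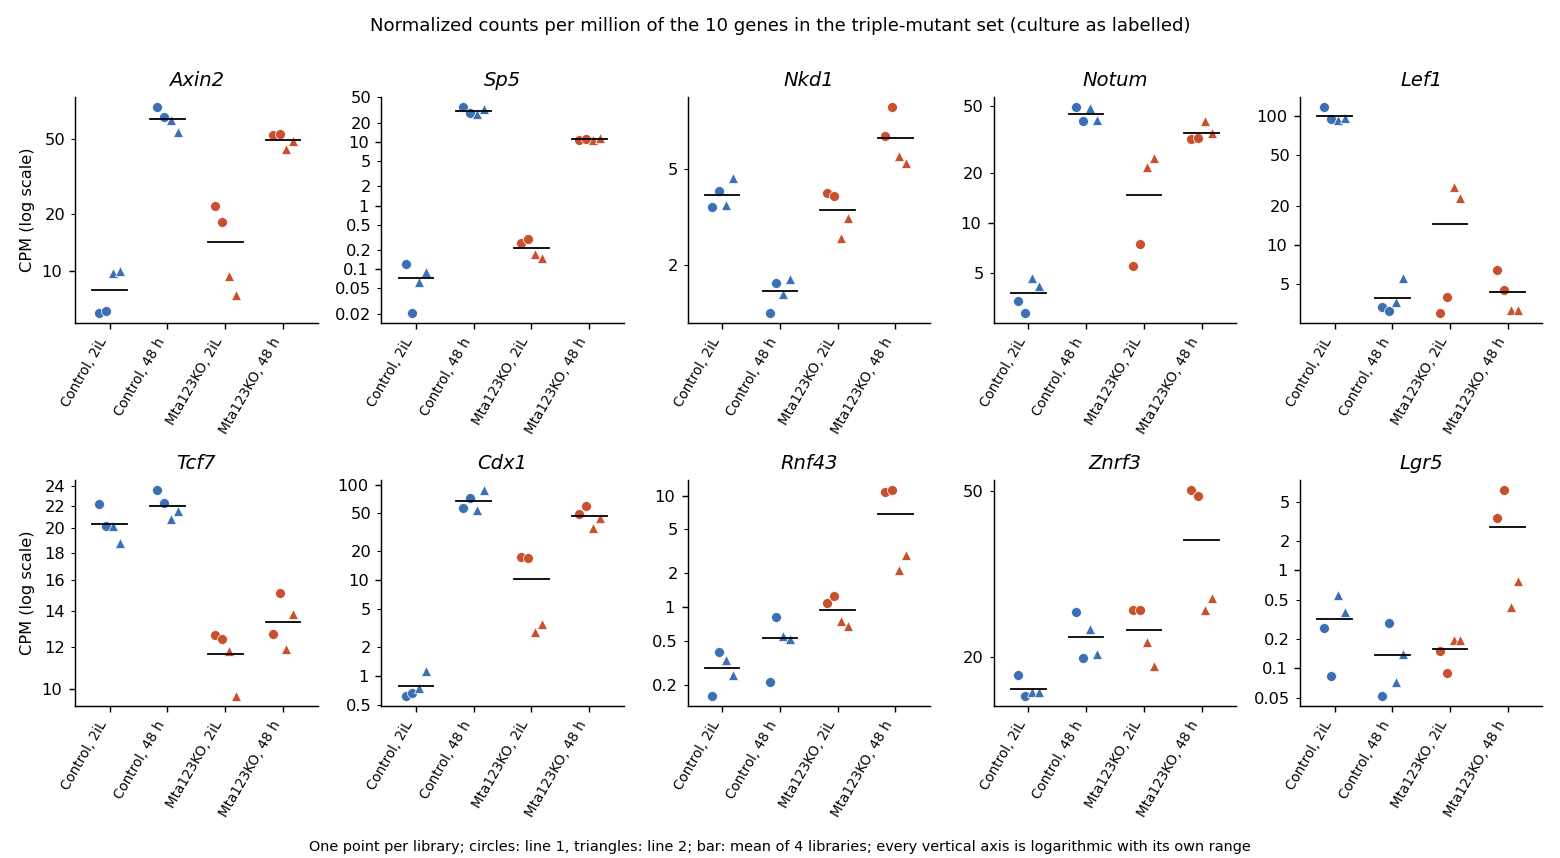
Normalized CPM of each gene (log axis, own range per panel) in the 16 libraries of the triple-mutant set, by genotype and culture label. Circles are line 1, triangles line 2, bars the mean of 4 libraries. Axin2, Sp5, Notum and Cdx1 are higher under the 48 h label in both genotypes, Lef1 is highest in Control labelled 2iL, and both Mta123KO lines separate for Lef1, Cdx1 and Notum under the 2iL label.

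Axin2, a scaffold of the beta-catenin destruction complex and a feedback inhibitor, was at 6.02, 6.11, 9.71 and 9.94 CPM in Control labelled 2iL and at 73.8, 65.2, 63.2 and 54.7 CPM in Control labelled 48 h. The groups did not overlap. Their means were 7.94 ± 2.17 and 64.2 ± 7.84 CPM (SD, n = 4), and the log2 fold change was 3.03 (SE 0.18, adjusted p = 1.03e-07). Notum, a secreted enzyme that inactivates Wnt ligands, was at 3.38, 2.87, 4.62 and 4.13 CPM under the 2iL label and at 49.5, 40.7, 48.9 and 41.3 CPM under the 48 h label, a log2 fold change of 3.60 (SE 0.14, adjusted p = 6.98e-09). Both inhibitors were therefore higher in every library labelled 48 h than in any labelled 2iL. Nkd1, which binds Dishevelled and dampens the signal inside the cell, went the other way. It was at 3.46, 4.03, 3.54 and 4.55 CPM under the 2iL label and at 1.27, 1.68, 1.51 and 1.75 CPM under the 48 h label, a log2 fold change of -1.32 (SE 0.15, adjusted p = 2.57e-05).

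Sp5, a zinc finger transcription factor that restrains TCF/LEF targets, had the largest change of the 10. It was at 0.120, 0.0208, 0.0621 and 0.0887 CPM in Control labelled 2iL, which is 1 to 6 reads per library, and at 35.2, 29.0, 27.1 and 33.3 CPM in Control labelled 48 h. The log2 fold change was 8.70 (SE 0.21, adjusted p = 5.00e-10). Cdx1, a homeobox factor of the posterior embryo and intestine, was at 0.620, 0.665, 0.746 and 1.13 CPM under the 2iL label and at 56.7, 73.3, 54.0 and 87.4 CPM under the 48 h label. Its log2 fold change was 6.44 (SE 0.22, adjusted p = 3.33e-09), and again no library of one label reached those of the other.

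Of the pair of TCF/LEF factors, which carry beta-catenin on DNA and are targets themselves, 1 moved against the feedback genes. Lef1 was at 116, 93.7, 92.9 and 96.2 CPM in Control labelled 2iL and at 3.31, 3.08, 3.62 and 5.53 CPM in Control labelled 48 h, a log2 fold change of -4.67 (SE 0.17, adjusted p = 4.79e-09). Tcf7 was at 18.8 to 22.2 CPM and 20.8 to 23.6 CPM under the respective labels, and these ranges overlapped (log2 fold change 0.13, SE 0.07, adjusted p = 0.129). Per kilobase of exon, which allows levels of different genes to be set side by side, Lef1 stood first of the 10 in Control labelled 2iL at 11.3 CPM per kb, followed by Tcf7 at 7.75 and Znrf3 at 2.13 CPM per kb. Under the 48 h label Cdx1 stood first at 38.8 CPM per kb, followed by Notum at 18.7, Sp5 at 14.8 and Axin2 at 11.7 CPM per kb, and Lef1 was seventh at 0.442 CPM per kb. The library ranges of Sp5 and Axin2 overlapped in that order, as did those of Lef1 and Nkd1, the eighth.

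The membrane ligases that remove Wnt receptors and the receptor that restrains them had smaller changes in Control. Znrf3, one of these ligases, rose by 0.42 on the log2 scale (SE 0.09, adjusted p = 0.00181), under the threshold for a call, with means of 16.8 ± 0.841 and 22.3 ± 2.72 CPM (SD, n = 4). Its partner Rnf43 was at 0.160 to 0.395 CPM under the 2iL label and 0.212 to 0.815 CPM under the 48 h label, with overlapping ranges (log2 fold change 0.86, SE 0.42, adjusted p = 0.0986). With the replicate number as a block, Rnf43 passed at an adjusted p of 0.0218, and its alternatives ran from 0.0173 to 0.276. Lgr5, the R-spondin receptor, was at 0.0831 to 0.559 CPM and 0.0529 to 0.289 CPM (log2 fold change -1.25, SE 0.61, adjusted p = 0.103), and it rested on 3 to 27 reads per library.

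The single-mutant set, which both the labels and the file names give as 2i+LIF, offers levels of the same genes without that doubt, although it was sequenced and normalized separately and supports no test across sets. In its 9 parental and wild-type libraries Axin2 ran from 32.1 to 171 CPM, Notum from 40.4 to 134 CPM, Sp5 from 5.38 to 84.6 CPM and Cdx1 from 15.1 to 209 CPM. The 4 Control libraries labelled 2iL lay below all of these ranges, at up to 9.94, 4.62, 0.120 and 1.13 CPM. The 4 Control libraries labelled 48 h were at 54.7 to 73.8, 40.7 to 49.5, 27.1 to 35.2 and 54.0 to 87.4 CPM. These lay within the range of the single-mutant parents for each of these 4 genes. Lef1 ran from 5.47 to 37.8 CPM in the single-mutant parents, below the 92.9 to 116 CPM of Control labelled 2iL and above 3 of the 4 libraries labelled 48 h, which ran from 3.08 to 5.53 CPM. Rnf43 and Lgr5 lay below the parents under both labels, at up to 0.815 and 0.559 CPM against at least 0.897 and 0.780 CPM. Znrf3 was at 16.2 to 18.1 CPM in Control labelled 2iL, 19.9 to 25.7 CPM labelled 48 h and 25.4 to 55.6 CPM in the parents. Nkd1 was within the parental 1.38 to 5.97 CPM under the 2iL label, while the 48 h label reached down to 1.27 CPM. Tcf7 lay within the parental range under both labels.

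In Mta123KO cells the same comparison of labels called 5 of the 10 genes higher and 0 lower, against 4.84% and 4.62% of the 21505 genes tested. Axin2, Sp5 and Cdx1 rose as in Control but by less, Rnf43 and Lgr5 rose, and Nkd1, which fell in Control, rose by a log2 fold change of 0.97 (SE 0.21, adjusted p = 0.0131), just under the threshold for a call. The median log2 fold change was 1.51 over the 10 genes and 0.00 over all genes tested. Without adjustment for multiple testing 9 of the 10 genes had a p under 0.05, against 7646 of all 21505 genes tested. DESeq2 called 6 of the 10 higher and 1 lower, the lower one being Lef1.

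**Figure D2:**
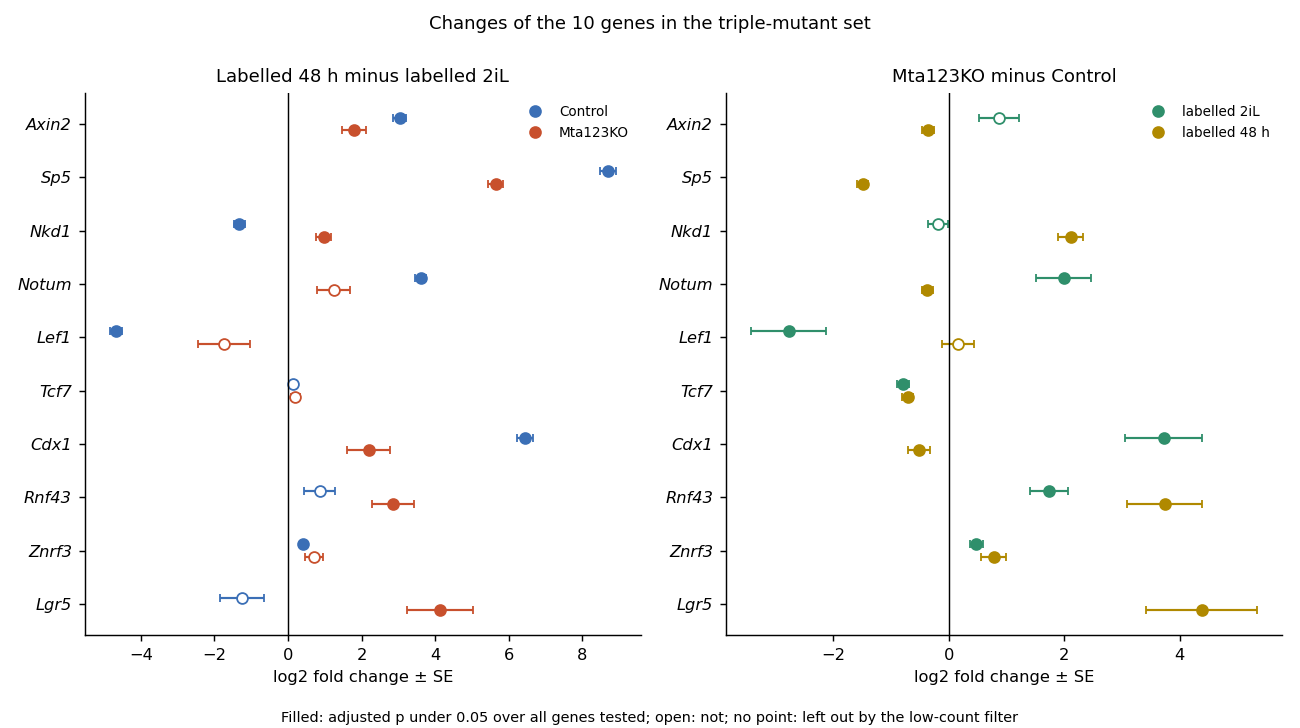
Log2 fold change with its standard error for each gene, on the left between culture labels in Control (blue) and Mta123KO (red), on the right between genotypes under each label. Filled points passed an adjusted p of 0.05. The changes between labels are smaller in Mta123KO for Axin2, Sp5, Notum, Lef1 and Cdx1, and Nkd1 lies on opposite sides of 0 in the genotypes.

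Sp5 was at 0.255, 0.295, 0.170 and 0.151 CPM in Mta123KO labelled 2iL and at 10.8, 11.1, 10.6 and 11.5 CPM in Mta123KO labelled 48 h, a log2 fold change of 5.64 (SE 0.21, adjusted p = 6.14e-06). Axin2 was at 22.2 and 18.1 CPM in line 1 and 9.35 and 7.45 CPM in line 2 under the 2iL label, and at 52.3, 53.4, 44.2 and 48.6 CPM under the 48 h label. Its log2 fold change was 1.79 (SE 0.33, adjusted p = 0.0057), and the groups did not overlap although the lines differed under the 2iL label. Cdx1 showed the same division: line 1 was at 17.5 and 17.2 CPM and line 2 at 2.87 and 3.51 CPM under the 2iL label, against 49.5, 59.5, 34.8 and 44.9 CPM under the 48 h label. Its log2 fold change of 2.19 (SE 0.59, adjusted p = 0.0299) did not stay under the threshold when 1 of 4 libraries was left out, namely Mta123KO labelled 2iL replicate 2_2 or Mta123KO labelled 48 h replicate 1_1, 1_2 or 2_2 (adjusted p = 0.0539 to 0.0686, within 5.64e-04 to 0.341 over all alternatives).

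Notum and Lef1, both changed in Control, differed between the knockout lines too, but in the opposite order to Axin2 and Cdx1. Notum was at 5.48 and 7.39 CPM in line 1 and at 21.6 and 24.3 CPM in line 2 under the 2iL label, and at 31.7, 32.3, 40.6 and 34.4 CPM under the 48 h label (log2 fold change 1.24, SE 0.45, adjusted p = 0.0822). With the replicate number as a block, Notum passed at a log2 fold change of 1.47 and an adjusted p of 0.00751, the smallest over its alternatives, which reached 0.461. Lef1 was at 3.02 and 4.01 CPM in line 1 and at 27.9 and 23.0 CPM in line 2 under the 2iL label, and at 6.45, 4.51, 3.17 and 3.14 CPM under the 48 h label (log2 fold change -1.75, SE 0.71, adjusted p = 0.113). The mean of line 1 was thus 1.56 times as high under the 48 h label as under the 2iL label, whereas that of line 2 was 0.124 times as high. Znrf3 had means of 23.2 ± 3.32 and 38.1 ± 13.0 CPM (SD, n = 4) and a log2 change of 0.71 (SE 0.24, adjusted p = 0.0631), and with the replicate block it passed at a log2 fold change of 0.66 and an adjusted p of 0.00317, the smallest of its alternatives, which reached 0.437.

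Rnf43 and Lgr5, which act on the same receptors, rose from low levels. Rnf43 was at 1.08, 1.25, 0.753 and 0.668 CPM in Mta123KO labelled 2iL and at 10.9, 11.2, 2.15 and 2.96 CPM in Mta123KO labelled 48 h (log2 fold change 2.85, SE 0.58, adjusted p = 0.0097). Lgr5 was at 0.149, 0.0907, 0.194 and 0.194 CPM under the 2iL label and at 3.37, 6.53, 0.425 and 0.785 CPM under the 48 h label (log2 fold change 4.12, SE 0.90, adjusted p = 0.0127). In both genes line 1 was several times as high as line 2 under the 48 h label, and both lines were above every Mta123KO library labelled 2iL. Lgr5 in line 2 rested on 19 and 43 reads under the 48 h label. Tcf7 was again within its spread, at 9.71 to 12.6 and 11.9 to 15.1 CPM (log2 fold change 0.20, SE 0.12, adjusted p = 0.282).

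**Figure D3:**
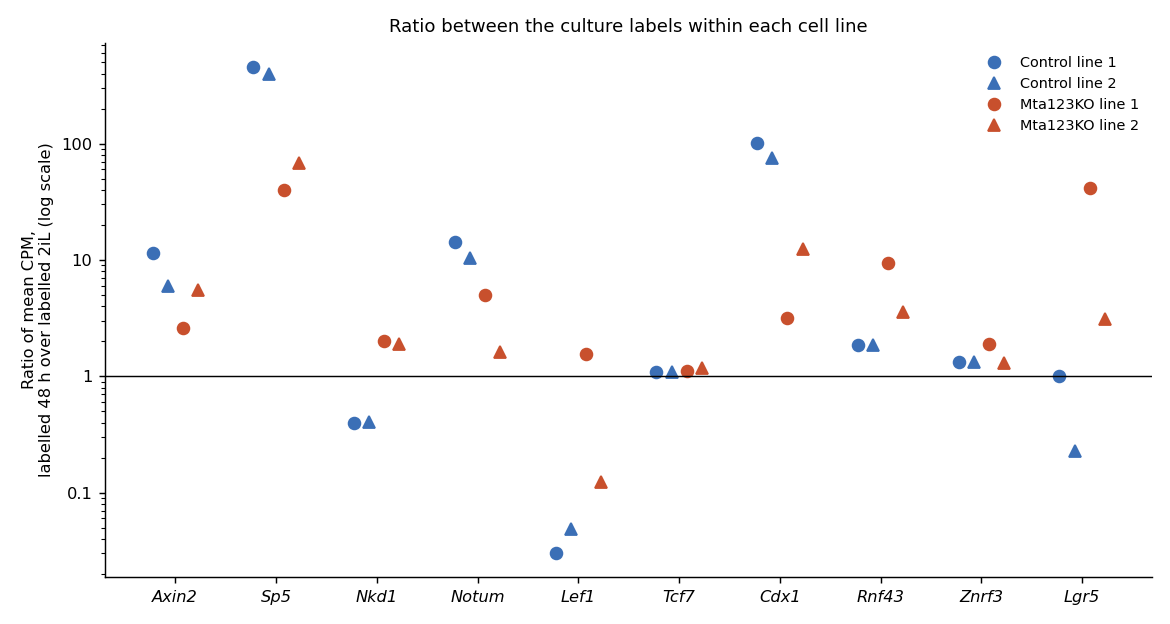
Ratio of mean CPM under the 48 h label to that under the 2iL label (log axis) for each gene in each of the 4 cell lines, 2 libraries per line and label. The Control lines give 0.0305 and 0.0484 for Lef1 and 456 and 400.5 for Sp5, and the knockout lines give 1.56 and 0.124 for Lef1 and 41.4 and 3.12 for Lgr5.

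The libraries of a line share their cells, so the lines are the stricter unit. With both libraries of each line summed, which leaves 2 samples per group, Control gave 4 genes called higher and 2 lower with none of the 10 changing its side of the threshold. In Mta123KO the summed libraries called 0 of the 10, with adjusted p = 0.117 to 0.341 for the 6 genes that had passed. Without adjustment 6 of the 10 had a p under 0.05 in the summed fit. The share of all genes at that level is not given for it, so the count stands without its background. With the libraries kept apart, 7646 of all 21505 genes tested had such a p. No gene at all was called in the summed fit. It held no term for line, so the pairing of line numbers between labels was not used. Each of the 6 genes that had passed had a higher mean under the 48 h label in each knockout line. The ratios ran from 1.91 (Nkd1, line 2) to 68.8 (Sp5, line 2).

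The culture and genotype comparisons of the set share libraries, so their values are given side by side. The interaction term asked directly whether the change between labels differed between genotypes, and 7 of the 10 genes passed. It was called negative for Axin2, Sp5, Notum and Cdx1 and positive for Nkd1, Lef1 and Lgr5, against 5.37% of all 22973 genes tested called negative and 7.66% called positive. With spike-in scaling, 44.6% of the called genes were positive, against 58.8% with the standard scaling. Cdx1 had a log2 difference of -4.23 (SE 0.70, adjusted p = 4.50e-04), Sp5 of -3.04 (SE 0.36, adjusted p = 2.54e-05), Notum of -2.35 (SE 0.50, adjusted p = 0.00299) and Axin2 of -1.22 (SE 0.39, adjusted p = 0.0319). These 4 genes all rose between labels in Control and changed by less in the knockout. Lgr5 had a difference of 5.38 (SE 1.18, adjusted p = 0.00379), Lef1 of 2.93 (SE 0.76, adjusted p = 0.011) and Nkd1 of 2.31 (SE 0.27, adjusted p = 2.00e-05). Rnf43 had a difference of 2.00 (SE 0.78, adjusted p = 0.0785), which passed with the replicate block at 1.79 and an adjusted p of 0.00906, within 0.00906 to 0.301 over its alternatives. With summed lines Sp5 and Nkd1 passed and the other 5 did not, and Axin2 also lost its call without any 1 of 9 libraries, which were Control labelled 2iL 1_1 and 1_2, Mta123KO labelled 2iL 1_1 and 1_2, Control labelled 48 h 1_1, 1_2 and 2_1, and Mta123KO labelled 48 h 2_1 and 2_2 (adjusted p = 0.0502 to 0.0705, within 0.00544 to 0.324 over all alternatives).

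Between genotypes under the 2iL label, Mta123KO cells had more Notum, Cdx1, Rnf43 and Znrf3 and less Lef1 and Tcf7 than Control. Of the 8 genes tested, 3 were called higher and 1 lower, against 13.2% and 7.43% of the 21651 genes tested. Cdx1 was 13.0 times as high by group means (log2 fold change 3.72, SE 0.66, adjusted p = 0.00148), Notum 3.92 times (1.99, SE 0.47, adjusted p = 0.00655) and Rnf43 3.32 times (1.74, SE 0.33, adjusted p = 0.00217), with no overlap between the groups for any of the 3. Lef1 was 0.145 times as high (log2 fold change -2.77, SE 0.65, adjusted p = 0.00658). Znrf3 was 1.38 times as high (0.48, SE 0.11, adjusted p = 0.0052). Axin2 overlapped between the genotypes, as Mta123KO line 2 lay within the range of Control while line 1 lay above it (log2 fold change 0.87, SE 0.35, adjusted p = 0.0664), and it passed without Mta123KO replicate 2_1 or 2_2 (adjusted p = 0.039 and 0.0188, within 0.0181 to 0.273 over all alternatives). Sp5 and Lgr5 were left out by the filter on low counts. Without that filter Sp5, at 7 to 13 reads per Mta123KO library against 1 to 6 per Control library, had a log2 fold change of 1.53 (SE 0.52, adjusted p = 0.0406), and Lgr5 of -1.02 (SE 0.53, adjusted p = 0.172).

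The comparison of genotypes under the 48 h label uses the other 8 libraries. Nkd1, Rnf43 and Lgr5 were called higher in Mta123KO and Sp5 lower, which is 3 and 1 of 10 against 14.1% and 5.93% of the 21079 genes tested. Of all genes called, 70.4% were higher in the knockout, and 59.4% with spike-in scaling. Nkd1 was at 6.80, 8.97, 5.63 and 5.26 CPM in Mta123KO against 1.27 to 1.75 CPM in Control (log2 fold change 2.11, SE 0.21, adjusted p = 5.34e-05). Rnf43 differed by 3.74 (SE 0.65, adjusted p = 0.0013) and Lgr5 by 4.38 (SE 0.96, adjusted p = 0.00462), each with the knockout lines apart. Sp5 was 0.353 times as high in the knockout, at 10.6 to 11.5 against 27.1 to 35.2 CPM (log2 fold change -1.49, SE 0.10, adjusted p = 6.54e-06).

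Smaller differences under the 48 h label passed the test without reaching 2-fold. Axin2 was 0.773 times and Notum 0.771 times as high in Mta123KO as in Control (adjusted p = 0.0152 and 0.0165), but neither passed with summed lines (0.128 and 0.0933) or in 1 fit over the set (0.262 and 0.376), within 0.00605 to 0.262 and 0.00529 to 0.376 over all alternatives. Cdx1 was 0.695 times as high, with overlapping groups (adjusted p = 0.0493). Cdx1 no longer passed without Control replicate 1_2 or 2_2 or Mta123KO replicate 1_1, 2_1 or 2_2 (adjusted p = 0.0781 to 0.125, within 0.0187 to 0.332 over all alternatives). Znrf3 was 1.71 times as high (adjusted p = 0.0174), but not past the threshold without Control replicate 1_2 (0.0521, within 0.00308 to 0.144 over all alternatives). Lef1 did not differ beyond its spread, at 3.14 to 6.45 CPM against 3.08 to 5.53 CPM (log2 fold change 0.16, SE 0.28, adjusted p = 0.655), and its sign turned with spike-in scaling and without Mta123KO labelled 48 h replicate 1_1. Tcf7 was lower in Mta123KO under both labels, with log2 fold changes of -0.79 (SE 0.10, adjusted p = 2.48e-04) under the 2iL label and -0.71 (SE 0.09, adjusted p = 2.81e-04) under the 48 h label. Every Mta123KO library, at 9.71 to 15.1 CPM, lay below every Control library, at 18.8 to 23.6 CPM. Tcf7 also kept its adjusted p under 0.05 in each of the 15 alternatives of both comparisons, including summed lines.

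With the libraries of each line summed, the genotype comparison under the 2iL label called 1 gene higher, Rnf43, and 0 lower. Of all 24467 genes tested in that fit, 1878 were called higher and 956 lower. Of the 10 genes, 7 had an unadjusted p under 0.05 in that fit. The share of all genes at that level is not given for it, so the count stands without its background. With the libraries kept apart, 12456 of all 21651 genes tested had such a p. Under the 48 h label the summed fit called 2 higher, Nkd1 and Rnf43, and 1 lower, Sp5. Of all 23899 genes tested there, 2168 were called higher and 823 lower. Markers of trophoblast differed between the genotypes in both comparisons. Their summed level over 5 genes was 73.3 to 271 CPM in Mta123KO against 7.65 to 13.8 CPM in Control under the 2iL label. Under the 48 h label it was 109 to 421 against 70.4 to 89.7 CPM. Under the respective labels 5 and 3 of the 5 were called higher, where 13.2% and 14.1% of all genes were. None was at 0 in every library of a group. By group means, most of the sum in Mta123KO was Krt8, a keratin of simple epithelia. Its means were 5.18 and 97.8 CPM in Control and Mta123KO labelled 2iL and 5.80 and 203 CPM under the 48 h label. The spread in Mta123KO was wide. Under the 2iL label Krt8 ran from 28.3 to 178 CPM and Tfap2c from 40.5 to 78.0 CPM, and under the 48 h label Krt8 ran from 65.7 to 351 CPM. Gata3, a trophoblast factor, was at 0.114 and 5.67 CPM and at 0.310 and 5.81 CPM. Tfap2c was at 4.75 and 60.1 CPM under the 2iL label but lower in the knockout under the 48 h label, at 74.7 and 49.8 CPM (log2 fold change -0.58, SE 0.17, adjusted p = 0.0189). Their part in the differences of the 10 genes was not tested, and a change in cells cannot be told apart from a change in RNA per cell in these bulk samples.

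In the single mutants, no change of the 10 genes beyond their spread was found with deletion of Mta1. At an adjusted p under 0.05, knockout of Mta2 went with lower levels of 7 of them and deletion of Mta3 with higher levels of 4. Without adjustment, 7 of the 10 for Mta2 and 5 for Mta3 had a p under 0.05 in either direction. Of all genes tested, 8433 of 15602 for Mta2 and 5602 of 15522 for Mta3 did. The 3 comparisons are within cells labelled 2i+LIF. For Mta1 edgeR called 0 of 14561 genes in either direction, which is 0%, and 50 had an unadjusted p under 0.05. None of the 10 was among those, and DESeq2 called 0 as well. Same-numbered Mta1 libraries deviated together, which these tests did not use. With the replicate number as a block, 0 of the 10 were called too (adjusted p = 0.981 to 0.992). These values do not show that an effect of Mta1 is absent. The log2 fold changes of the 10 ran from -0.81 for Rnf43 to 0.24 for Znrf3, with standard errors from 0.16 to 0.67. The spread was wide, as Sp5 ran from 13.9 to 84.6 CPM in Mta1_flox/flox and from 22.8 to 58.2 CPM in Mta1_del/del. A change of 2-fold in Sp5, Nkd1, Lef1, Cdx1 or Rnf43 would thus lie within 2 standard errors of 0.51 to 0.67.

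**Figure D4:**
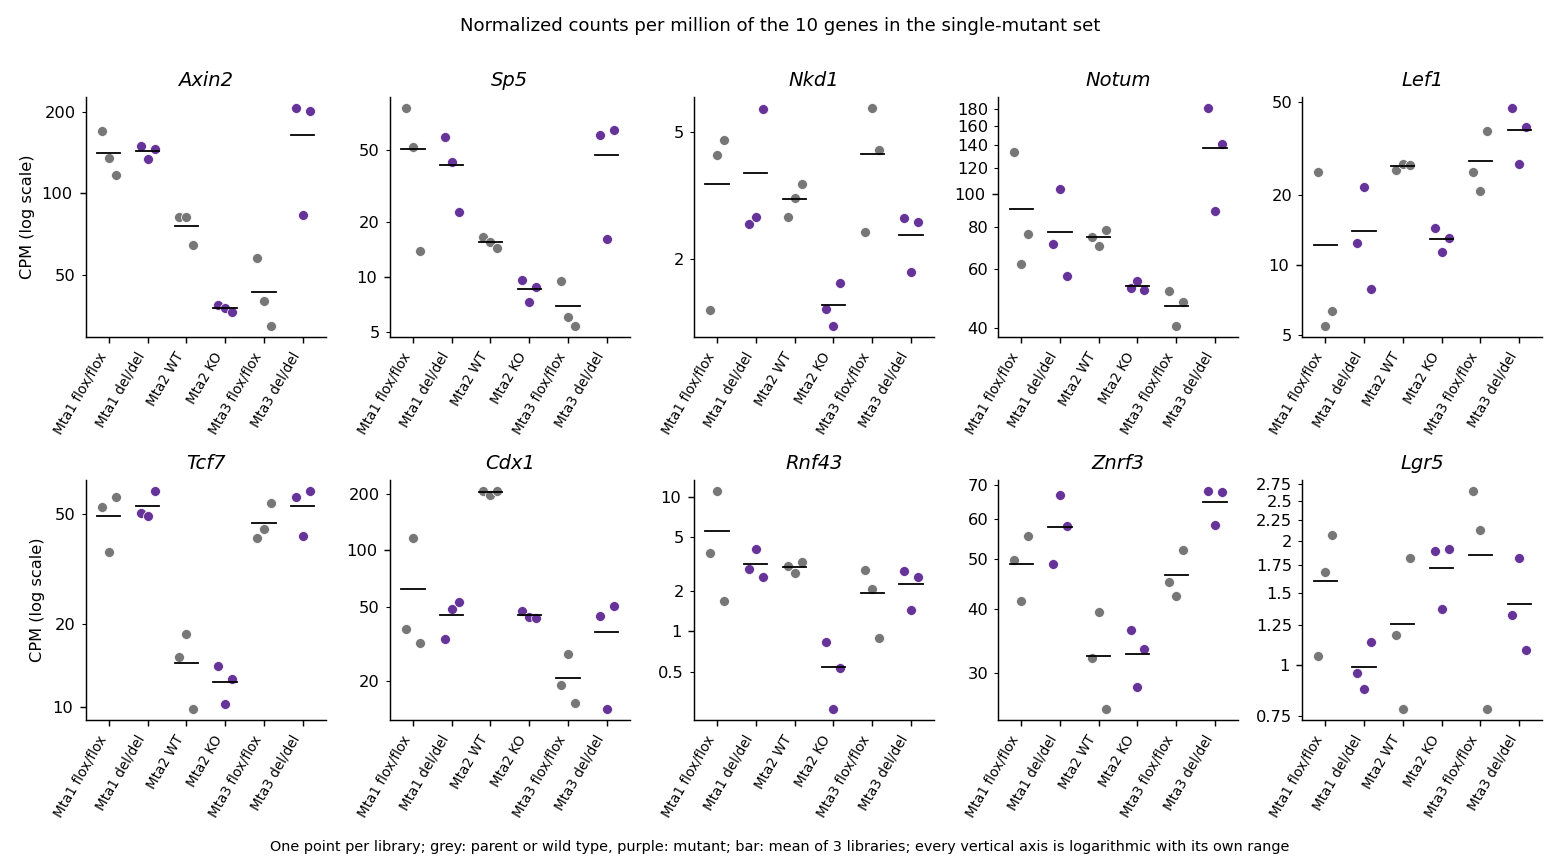
Normalized CPM of each gene (log axis, own range per panel) in the 18 libraries of the single-mutant set. Grey points are parents or wild type, purple points mutants, bars the mean of 3 libraries. Axin2, Sp5 and Notum are lower in Mta2_KO than in Mta2_WT and higher in Mta3_del/del than in Mta3_flox/flox, with Mta3_del/del replicate 2 the lowest of its group for Axin2, Sp5, Notum and Cdx1.

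In Mta2_KO cells 5 of the 10 genes were called lower and 0 higher, against 6.04% and 5.31% of the 15602 genes tested, and DESeq2 gave the same counts. Cdx1 was at 209, 198 and 208 CPM in Mta2_WT and at 47.3, 43.8 and 43.4 CPM in Mta2_KO, a log2 fold change of -2.20 (SE 0.05, adjusted p = 2.56e-09). The other parents were lower than Mta2_WT, at 31.9 to 116 CPM in Mta1_flox/flox and 15.1 to 27.8 CPM in Mta3_flox/flox, a span that holds the Mta2_KO values. Rnf43 was at 3.05, 2.73 and 3.31 CPM and at 0.841, 0.263 and 0.537 CPM (log2 fold change -2.45, SE 0.32, adjusted p = 1.95e-04). Both were lower in every knockout library than in any wild-type library. Axin2 was at 81.5, 81.6 and 64.5 CPM and at 38.6, 37.5 and 36.4 CPM (log2 fold change -1.02, SE 0.09, adjusted p = 1.47e-05), Lef1 at 25.6, 27.2 and 26.8 CPM and at 14.5, 11.4 and 13.1 CPM (-1.03, SE 0.09, adjusted p = 1.65e-05), and Nkd1 at 2.71, 3.12 and 3.44 CPM and at 1.39, 1.23 and 1.68 CPM (-1.12, SE 0.18, adjusted p = 6.94e-04).

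Sp5 and Notum fell by less than 2-fold, with log2 fold changes of -0.86 (SE 0.11, adjusted p = 2.31e-04) and -0.49 (SE 0.05, adjusted p = 5.21e-05) and no overlap between the groups. Tcf7, Znrf3 and Lgr5 did not pass, at -0.24 (SE 0.21), 0.01 (SE 0.15) and 0.46 (SE 0.30). Fitted together with all 18 libraries of the set, 3 of the 7 genes passed, Axin2, Cdx1 and Rnf43, all called lower. Nkd1, Lef1, Notum and Sp5 did not, with adjusted p = 0.0923, 0.148, 0.265 and 0.329, the highest over their alternatives, whose lowest were 1.55e-04, 3.20e-20, 5.02e-11 and 1.02e-09. Without Mta2_WT replicate 3 the count called lower stayed at 5 and without Mta2_KO replicate 2 it was 4. Markers of other cell types differed with this genotype in both directions, where 5.31% of all genes were called higher and 6.04% lower. Of the trophoblast list 1 of 5 was called higher, Tfap2c from 58.0 to 136 CPM, and 2 lower, Cdx2 and Krt8, the latter from 11.9 to 2.01 CPM, with a summed level of 81.4 to 92.2 CPM in Mta2_WT and 139.6 to 147 CPM in Mta2_KO. Of the neural list Pax6 was called higher, from 7.60 to 21.7 CPM, as was Nes, from 15.3 to 39.5 CPM, and Sox1 was called lower, from 0.861 to 0.269 CPM, with summed levels of the list of 21.3 to 29.5 and 58.4 to 65.3 CPM. Of 4 mesendoderm genes tested T was called lower, and Eomes fell from 15.1 to 8.20 CPM. No tested gene of these lists was at 0 in every library of either group, and their part in the changes of the 10 genes was not tested.

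In Mta3_del/del cells 3 of the 10 genes were called higher, Axin2, Sp5 and Notum, and 0 lower, against 0.812% and 5.25% of the 15522 genes tested. Axin2 was at 57.7, 39.8 and 32.1 CPM in Mta3_flox/flox and at 208, 83.3 and 202 CPM in Mta3_del/del (log2 fold change 1.86, SE 0.34, adjusted p = 0.0198). Sp5 was at 9.50, 6.04 and 5.38 CPM and at 59.9, 16.1 and 64.2 CPM (2.69, SE 0.48, adjusted p = 0.0189). Notum was at 51.5, 40.4 and 47.6 CPM and at 181, 89.1 and 141 CPM, 2.94 times as high by group means (adjusted p = 0.0148). For all 3 the second deleted library lay nearest the parent, yet above each parental library. Znrf3 rose by 0.42 (SE 0.11, adjusted p = 0.0352) but did not pass without any 1 of 5 libraries (0.0542 to 0.143, within 0.0176 to 0.143 over all alternatives), and Cdx1, Lef1, Nkd1, Tcf7, Rnf43 and Lgr5 did not pass.

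The Mta3 calls rested on few libraries. Without Mta3_del/del replicate 1 none of the 10 was called, without Mta3_flox/flox replicate 2 or 3 only Notum was, without Mta3_del/del replicate 3 Sp5 and Notum were, and without Mta3_del/del replicate 2 Cdx1 was called as well, which made 4. Axin2 then had adjusted p = 0.0515 to 0.085 in the 4 fits where it lost its call, within 0.00107 to 0.085 over all alternatives.

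**Figure D5:**
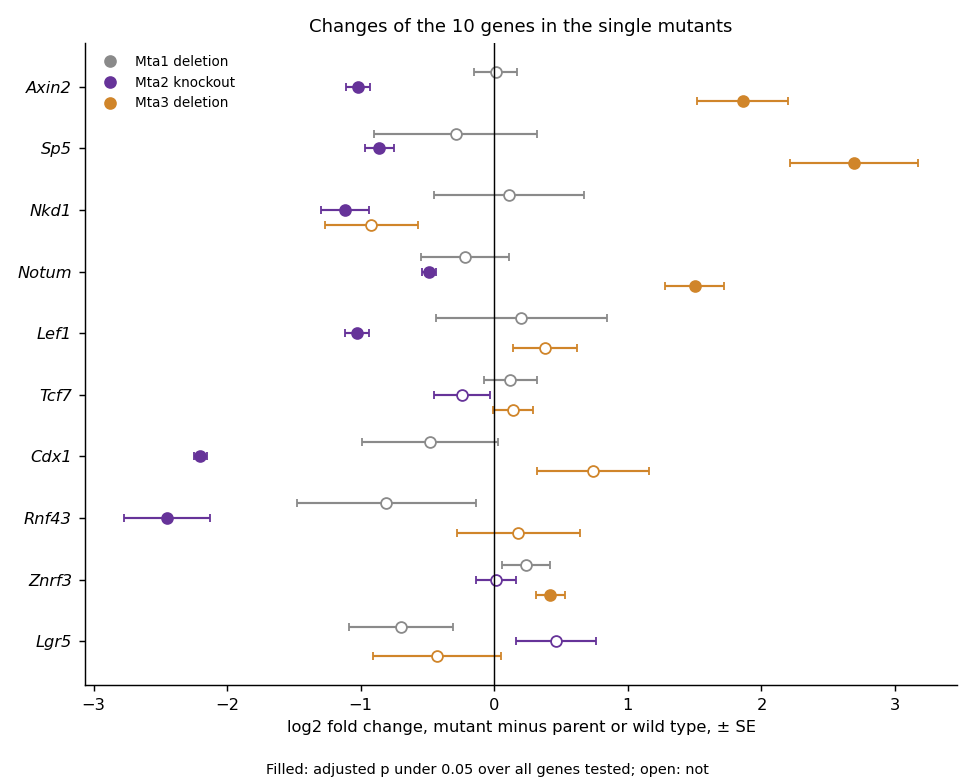
Log2 fold change with its standard error for each gene after loss of Mta1 (grey), Mta2 (purple) or Mta3 (orange), each against its own parent or wild type. Filled points passed an adjusted p of 0.05. Axin2, Sp5 and Notum lie left of 0 for Mta2 and right of 0 for Mta3, and every Mta1 point is open.

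Whether loss of Mta3 differed in effect from loss of Mta2 was tested as the difference of both changes in 1 fit, a test added after these values had been seen. The difference was called positive for 6 of the 10 genes and negative for 0, against 5.03% and 8.51% of the 16348 genes tested. It was 3.63 for Sp5 (SE 0.55, adjusted p = 4.31e-04), 3.01 for Cdx1 (SE 0.48, adjusted p = 5.81e-04), 2.96 for Axin2 (SE 0.40, adjusted p = 2.01e-04), 2.72 for Rnf43 (SE 0.60, adjusted p = 0.00461), 2.05 for Notum (SE 0.26, adjusted p = 1.49e-04) and 1.47 for Lef1 (SE 0.30, adjusted p = 0.00307). All 6 stayed called in each of the 12 fits without 1 library. Nkd1, which fell in Mta2_KO and did not pass in Mta3_del/del, had a difference of 0.25 (SE 0.41, adjusted p = 0.672).

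A list of 30 genes that turn a Wnt ligand into nuclear beta-catenin covers ligand secretion, receptors, destruction complex and nuclear cofactors. Between labels in Control 20 of them passed an adjusted p of 0.05. Such differences were common, as 13290 of all 21240 genes tested had an unadjusted p under 0.05. Of the 30, 3 were called higher and 1 lower, where 10.4% and 13.2% of all genes were, with a median log2 fold change of 0.16. Fzd7, a Wnt receptor, fell from 92.4 to 26.2 CPM (log2 fold change -1.81, SE 0.15, adjusted p = 1.80e-06), Wls, which carries Wnt ligands to the cell surface, rose from 11.0 to 31.8 CPM, and the repressor Tcf7l1 rose from 13.6 to 29.3 CPM. In Mta123KO 1 was called higher, Wls, and 1 lower, Fzd7, where 4.84% and 4.62% of all genes were. Between genotypes the counts were 3 higher and 3 lower under the 2iL label, near the shares of all genes (13.2% and 7.43%), with the corepressor Tle3 rising from 77.2 to 289 CPM, and 1 and 1 under the 48 h label (14.1% and 5.93% of all genes), where Bcl9l, a beta-catenin cofactor, rose from 12.3 to 43.3 CPM and the receptor Lrp5 fell from 61.8 to 27.5 CPM. Mta1 deletion and Mta3 deletion called none of the 30 and Mta2 knockout called 1 lower (6.04% of all genes), Wls, which fell from 87.3 to 41.7 CPM.

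A further 16 known beta-catenin targets went in mixed directions, as the 10 did. Between labels in Control 5 were called higher and 4 lower of 15 tested, where 10.4% and 13.2% of all genes were, with a median log2 fold change of -0.07: T (brachyury), a mesoderm factor, rose from 0.210 to 2.16 CPM, while the growth regulator Myc fell from 25.1 to 3.01 CPM. In Mta123KO 3 of 15 were called higher and 0 lower (4.84% and 4.62% of all genes), among them T, from 0.385 to 2.40 CPM, and Apcdd1, an extracellular Wnt inhibitor, from 6.35 to 21.5 CPM. Between genotypes 4 were called higher and 3 lower of 14 under the 2iL label (13.2% and 7.43% of all genes) and 5 and 1 of 14 under the 48 h label (14.1% and 5.93%), where Ascl2, a factor of trophoblast and intestinal stem cells, went from 0.947 to 16.3 CPM and the secreted inhibitor Dkk1 from 0.881 to 4.82 CPM. In Mta2_KO cells 5 of 15 were called lower and 0 higher (6.04% and 5.31% of all genes). T fell by 2.23 on the log2 scale. Cdx2 fell from 15.6 to 1.57 CPM, where the other parents were at 3.47 (Mta1_flox/flox) and 0.370 CPM (Mta3_flox/flox). In Mta3_del/del 1 of 14 was called higher, Myc, and 2 lower, Cd44 and Nkd2 (0.812% and 5.25% of all genes), and Mta1 deletion called none.

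Genes known to be held down by Tcf7l1 in ES cells moved with Axin2 rather than with Lef1 between the labels. All 4, Tfcp2l1, Nanog, Esrrb and Klf2, were called higher under the 48 h label in both genotypes, with log2 fold changes of 2.64 to 5.64 in Control and 1.37 to 3.39 in Mta123KO. Esrrb, a naive pluripotency factor, was at 62.4 and 668 CPM in Control labelled 2iL and labelled 48 h. Of the broader naive list 11 of 11 genes were called higher in Control and 9 of 11 in Mta123KO, whereas 6 and 5 of 7 formative or primed genes were called lower, among them Pou3f1, from 73.2 to 1.45 CPM in Control. Of the neural list 3 of 4 genes were called lower in Control. Over all genes tested, 10.4% were called higher and 13.2% lower in Control, and 4.84% and 4.62% in Mta123KO. The summed level of the 4 Tcf7l1-repressed genes was 131 to 207 CPM in Control labelled 2iL, 3285 to 3601 CPM in Control labelled 48 h and 2760.1 to 4587 CPM in the parents and wild type of the single-mutant set.

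The MEK inhibitor of 2iL can be followed by genes that ERK signalling induces. Of 6 such genes 4 were called lower and 0 higher under the 48 h label in Control, and 3 and 0 in Mta123KO. Of all genes tested, 13.2% were called lower and 10.4% higher in Control, and 4.62% and 4.84% in Mta123KO. Dusp6, a phosphatase of ERK, fell from 169 to 13.8 CPM in Control (log2 fold change -3.61, SE 0.20, adjusted p = 6.69e-08) and from 75.7 to 3.03 CPM in Mta123KO (-4.65, SE 0.42, adjusted p = 2.49e-04). Its mean was 13.4, 6.64 and 5.46 CPM in Mta1_flox/flox, Mta2_WT and Mta3_flox/flox. General pluripotency genes were present in all libraries, with a summed level over 4 genes of 780.0 to 1176 CPM in the triple-mutant set and 1104 to 1724 CPM in the single-mutant set. Mesendoderm genes summed to 3.45 to 4.21 CPM in Control labelled 2iL and 14.2 to 17.3 CPM in Control labelled 48 h, with 3 of 4 tested called higher, Gsc, T and Eomes. Primitive endoderm genes summed to at most 16.8 CPM and fibroblast genes to at most 7.39 CPM in any library of the triple-mutant set, and Dcn, a fibroblast gene, was at 0 in all 4 Control libraries labelled 48 h. Mta3_flox/flox held more fibroblast RNA than Mta3_del/del, at 10.3 to 37.8 against 5.67 to 6.17 CPM, beside the differences in Axin2, Sp5 and Notum, and its part in them was not tested.

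The genes whose pattern over the 16 triple-mutant libraries was nearest to that of Axin2, by root mean square difference of centred log2 CPM, were Hspb8 (0.222), Fzd10 (0.291), Ctsc (0.299), Rasgef1a (0.304) and Gm11670 (0.314). Among the 10 genes Notum came nearest to Axin2, at rank 537. Nearest to Lef1 were Gm43352 (0.184), Pim2 (0.468), Wt1 (0.619), Enpp2 (0.652) and Bcl6b (0.695). These genes were ranked on the same libraries as the values above, so the likeness is a description. Gm11670 lies on the strand opposite Axin2 and shares 209 exon bases with it, and Gm43352 lies opposite Lef1 and shares 1208. Notum has such partners as well, Notumos with 708 shared bases and Myadml2os with 210. The strand setting of the counting is not given in the sources used here, so reads of these partners cannot be told apart with certainty.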

How the data were processed

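RNA-seq of mouse ES cells was analysed from the gene counts that the authors deposited, raw reads per Ensembl gene with no normalization. Per the submitters' processing notes, reads were trimmed with Trim Galore, aligned with TopHat2 to GRCm38/mm10 and counted with featureCounts, and the strand setting and the treatment of multi-mapped reads are not given in the sources used here. The triple-mutant set was paired-end and the single-mutant set single-end, so the sets were never tested against each other. Groups followed the sample labels, although the file names give the opposite culture for the triple-mutant set.

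Counts were tested with edgeR 4.0.16 (limma 3.58.1, R 4.3.3): TMM scaling, filterByExpr, quasi-likelihood F test over the libraries compared and Benjamini-Hochberg adjustment over all genes tested. Calls required a log2 fold change beyond 1 either way at an adjusted p below 0.05. Standard errors were taken as the fold change divided by the square root of F and are approximate. The script was tested on simulated data. Spike-in rows were left out of totals and tests. All 10 members are named, and from each list at most the 3 called genes with the largest change that reach 1 CPM on average in one group, while lists of 5 or fewer genes may be named further. Likeness used log2(CPM + 1). The members and lists were chosen with earlier results of these data known. Alternatives were DESeq2 1.42.0, its size factors, spike-in scaling, no filter, the replicate number as a block, summed lines, 1 fit per set and leaving out each library.

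Same-numbered libraries deviated together between culture labels (correlation of deviations at least 0.221 in Control and 0.495 in Mta123KO) and for Mta1 (at least 0.445), where the number was taken from the labels.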

Additional observations from a re-analysis of the deposited data

Results flagged for a closer look

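Among 40 gene-by-group sets of 4 libraries, 2 had a library far from the other 3 by Dixon's criterion, where chance gives about 1 in 20. Lef1 reached 116 CPM in Control labelled 2iL replicate 1_1 (statistic 0.858), and Znrf3 reached 18.1 CPM in the same library (0.840).

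The change between culture labels differed between genotypes by the interaction term. The log2 difference, Mta123KO minus Control, was -1.22 for Axin2, -3.04 for Sp5, -2.35 for Notum and -4.23 for Cdx1, and 2.31 for Nkd1, 2.93 for Lef1 and 5.38 for Lgr5. If the culture labels were exchanged, each of these signs would turn.

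The effect of Mta3 deletion minus that of Mta2 knockout was 2.96 for Axin2, 3.63 for Sp5, 2.05 for Notum, 1.47 for Lef1, 3.01 for Cdx1 and 2.72 for Rnf43. The mutants have different parents, which cannot be told apart from the subunit lost.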

How the results depend on the processing

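Of 1280 repeats of a gene's test under an alternative, 1163 kept direction and side of the threshold, 29 newly passed, 63 no longer passed and 25 turned sign. With the libraries of each line summed, Mta123KO gave 0 genes called higher between labels, the genotype comparison under the 2iL label 1 higher and 0 lower, and the interaction 1 higher and 1 lower. Between labels in Mta123KO, DESeq2 called 1 gene lower, as did 1 fit over the set, which also gave 3 called lower for Mta2. Leaving out 1 library gave 0 to 1 called lower between labels in Mta123KO, 1 to 2 lower between genotypes under the 2iL label and 0 to 4 higher for Mta3. The cause of these changes was not tested, beyond fewer samples in the summed and left-out fits.

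With the replicate number as a block, Rnf43 between labels in Control (0.86), Notum and Znrf3 between labels in Mta123KO (1.47 and 0.66) and Rnf43 in the interaction (1.79) newly passed, and the block changed no other call of the 10 genes. The numbers did not pair the libraries in the genotype comparisons (lowest correlations -0.226 and -0.0921). For Mta2 and Mta3 they did so in part. The mean correlations of same-numbered libraries were 0.108 and 0.158, and the lowest -0.191 and -0.116. In each, 2 of 3 parental or wild-type libraries were nearest the mutant library of their own number.

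Signs turned only for values that did not pass. Spike-in scaling, which moved log2 fold changes by 0.18 between labels in Control, by -0.18 between genotypes under the 48 h label and by -0.22 in the interaction, gave -0.01 for Lef1 under the 48 h label and -0.15 for Tcf7 in the interaction. No filter gave -0.01 for Znrf3 in Mta2_KO. Leaving out 1 library gave -0.09 to 0.37 for Lef1 between genotypes under the 48 h label, -0.14 to 0.17 for Znrf3 in Mta2_KO, -0.17 to 0.55 for Rnf43 in Mta3_del/del and -0.03 to 0.55 for Nkd1 in the difference of Mta3 and Mta2. For Mta1 it gave -0.11 to 0.15 for Axin2, -0.73 to 0.30 for Sp5, -0.39 to 0.41 for Nkd1, -0.51 to 0.14 for Notum, -0.28 to 1.21 for Lef1, -0.05 to 0.25 for Tcf7, -0.79 to 0.37 for Cdx1 and -1.25 to 0.22 for Rnf43. Counts of 1 to 6 reads limit Sp5 in Control labelled 2iL. Over all genes, summed lines gave 2834 calls between genotypes under the 2iL label against 4470, 667 in the interaction against 2993 and 0 between labels in Mta123KO against 2035.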
